A study of Mus musculus with 3 samples.

Results

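The granins and the enzymes that process prohormones were followed in spleens that had received islet grafts. The 10 genes, here called members, were Chga, Chgb, Scg2, Scg3, Scg5, Vgf, Pcsk1, Pcsk2, Cpe and Pcsk1n, and they were chosen by name, with every probe that the array assigns to them. They had 13 probes on 22 spots, out of 34797 gene names, 55681 probes and 59305 spots that were not controls. Each of 8 genes had 1 probe, Pcsk2 had 2 and Cpe had 3, and Chgb was the gene whose probe was printed on 10 spots.

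The recipients were male C57BL/6J mice made diabetic with streptozotocin, a toxin of beta cells, and they were given syngeneic islets, that is, islets from the same inbred strain. According to the treatment protocol, every recipient had 25 islets placed in the spleen and 100 islets beneath the kidney capsule, although the sample characteristics mention the capsular graft on Sample 3 alone. Sample 1 was the spleen taken directly after the transplantation (day 0), and Sample 2 was taken on day 2. Sample 3 was taken on day 139 from mice whose graft-bearing kidney had been removed on day 100, so the time and the loss of the capsular graft cannot be told apart in it. Each condition was measured on 1 one-color array, how many mice were behind each array is not stated in the sources used here, and a spleen without a graft was not analysed here. No difference between days therefore has a replicate check, no test was possible, and the comparisons describe 3 arrays, each of which entered 2 of the 3 comparisons.

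Granins are acidic proteins that are packed with peptide hormones into the dense-core granules of endocrine cells and neurons, where they help to form the granule and are themselves cut into peptides. Within the granule the proprotein convertases PC1/3 (Pcsk1) and PC2 (Pcsk2) cut prohormones such as proinsulin and proglucagon after pairs of basic residues. Carboxypeptidase E (Cpe) then trims those residues from the new ends, and the small proteins 7B2 (Scg5) and proSAAS (Pcsk1n) bind PC2 and PC1/3, respectively. In the pancreas these genes are known from the islet endocrine cells, whereas adrenal chromaffin cells and sympathetic neurons, whose fibers enter the spleen, use the same machinery.

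Every one of the 25 markers of spleen stroma, macrophages, B cells, T cells and erythroid cells that were examined was well above background on all 3 arrays, so that the labelled tissue had its defining genes. Probes well above background made up 54.4% of 55679 on day 0, 53.8% on day 2 and 50.4% on day 139. The 8 spike-in controls, RNAs added in fixed amounts, gave 102% of their day 0 signal on day 2 and 59.6% on day 139. No spot was saturated, and no spot of the 10 genes was marked as an outlier. Signals below are quantile normalized linear intensities, which set every array to the same distribution. A ratio carries the error that the scanner software gave the spots, on the log2 scale, which does not include differences between mice. The Z-score divides a log2 ratio by the SD of the 1000 probes nearest to it in signal, and a gene was called higher at a Z-score of at least 2 with a ratio of at least 1.5, or lower at a Z-score of at most -2 with a ratio of at most 0.66. For a probe not well above background on an array, a bound was given against the lowest signal well above background there, which was 12.9, 14.0 and 18.2 on the 3 days, or against its own signal where that was higher.

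The promoters of 8 of the 10 genes were found in the RefSeq table of GRCm38.p6, and Vgf and Cpe were not among them. They are shown because the cAMP response element, the site bound by CREB proteins, is a textbook feature of granin promoters. A relation of this element to the ratios below was not tested. Both strands of the 300 bases from 250 before to 50 after each start were searched for the full element TGACGTCA and for its short form TGACG, which is also contained in the full element. The full element was present in 3 of 8 promoters, those of Chgb, Scg2 and Pcsk1, and in 1.79% of the 32851 promoters of the table. The short form was present in 7 of 8, against 20.8% of all promoters, and Pcsk1n was the gene without it. The letters of the TATA box, TATAAA, were present in 1 of 8, against 13.6% of all promoters. That match was in Chga and began 5 bases after the start, not before it. Such a match describes the letters and is not evidence of a bound site. The 120 bases before the start are given for 3 granins, on the strand of the gene and with the element in capitals. They lie at chr2:132781522-132781641 (plus strand) for Chgb, at chr1:79440027-79440146 (minus strand) for Scg2 and at chr12:102554821-102554940 (plus strand) for Chga. For Pcsk1 only the 30 bases around the full element are given, at chr13:75089768-75089797 (plus strand).
Chgb: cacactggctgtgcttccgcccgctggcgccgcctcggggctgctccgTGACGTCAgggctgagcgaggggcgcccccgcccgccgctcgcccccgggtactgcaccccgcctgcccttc
Scg2: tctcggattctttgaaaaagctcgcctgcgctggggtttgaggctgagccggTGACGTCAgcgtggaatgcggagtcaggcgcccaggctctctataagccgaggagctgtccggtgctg
Chga: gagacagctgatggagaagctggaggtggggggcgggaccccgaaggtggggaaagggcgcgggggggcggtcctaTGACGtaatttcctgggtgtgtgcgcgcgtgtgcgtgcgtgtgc
Pcsk1: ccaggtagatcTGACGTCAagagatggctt
The full element began 72 bases before the start in Chgb, 68 in Scg2 and 78 in Pcsk1, and the short form began 44 bases before the start in Chga.

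The signal was highest on day 2 for 10 of the 10 genes. On day 2 over day 0, 8 of 10 were called higher and 0 lower, where 1.83% of the 32108 probes tested were called higher (588) and 2.48% lower (796). The genes called higher were all 5 that are grouped here as granins (Chgb, Chga, Scg3, Scg2 and Vgf), both convertases and Scg5. Cpe and Pcsk1n did not meet the criteria. The median log2 ratio of the 10 genes was 1.85, against 0.01 over all probes tested. In whole-spleen RNA, more or fewer cells of a type cannot be told apart from more or less RNA per cell.

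**Figure D1:**
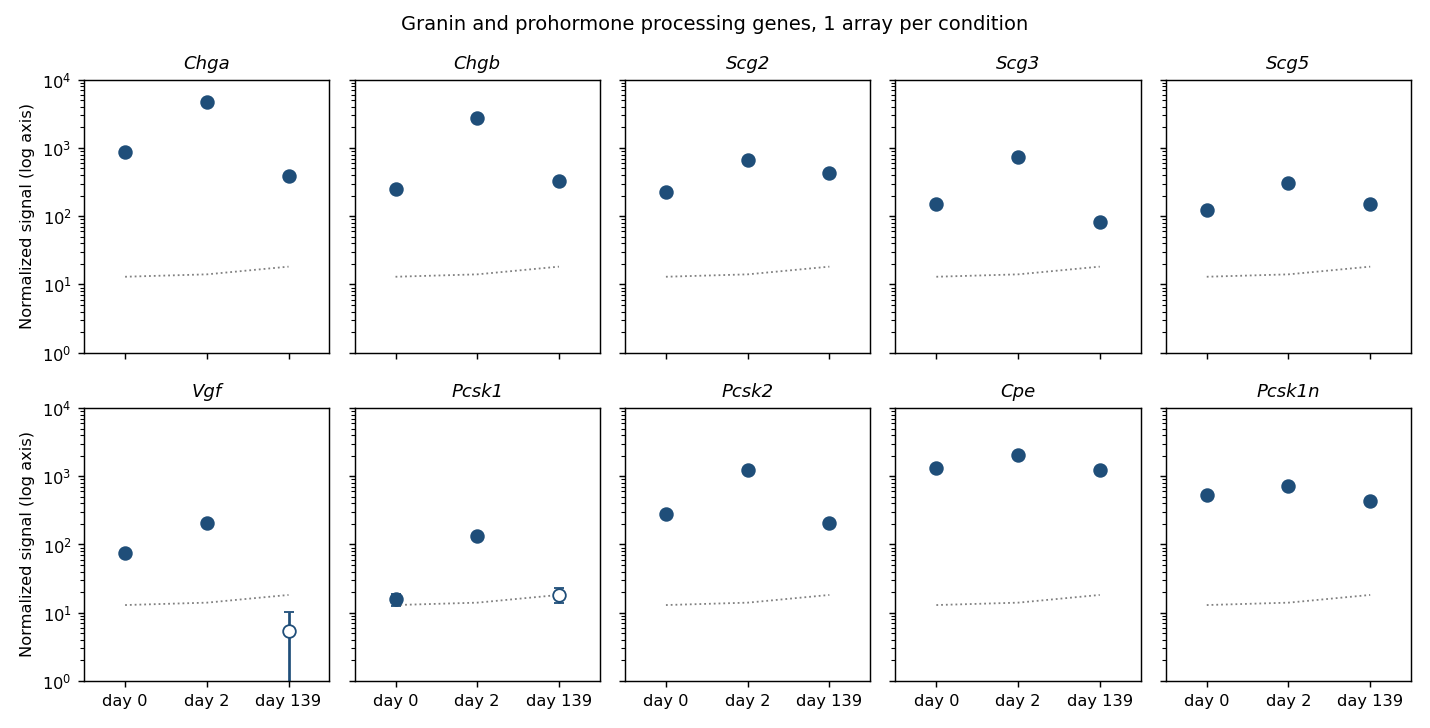
Normalized signal (log axis) of each of the 10 genes by the brightest probe on day 0, day 2 and day 139, 1 array each, with filled points well above background, open points not, bars for the scanner error and a dotted line for the lowest signal well above background on each array. The day 2 point is the highest in 10 of 10 panels, and on day 139 Vgf (5.31) and Pcsk1 (18.3) are the open points.

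Chgb (chromogranin B), a major granin of the beta cell granule, had a normalized signal of 249.7 on day 0, 2783 on day 2 and 327 on day 139. Its day 2 array stood far above the other two, which lay close to each other. The signal was 11.1-fold higher on day 2 than on day 0 (log2 ratio 3.48 ± 0.20 scanner error, Z-score 7.34). The Chgb probe lies at chr2:132620703-132620762 of mm9 on the plus strand, and the first 30 of its 60 bases were tagcgtgacttgtagcgtattcttcctgca. Because it was printed on 10 spots, it alone gave a measure of technical spread within an array. The background-subtracted intensity of these spots ran from 225 to 290 on day 0 (mean 262 ± 20.5, SD of 10 spots), from 2409 to 3201 on day 2 (2955 ± 217) and from 278 to 315 on day 139 (297 ± 14.9). All day 2 spots were above all spots of the other days, while the ranges of day 0 and day 139 overlapped. The coefficient of variation was 7.82% on day 0, 7.35% on day 2 and lower on day 139, and these spots share 1 RNA sample per day and are not replicates of a day.

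Chga (chromogranin A), the granin that is the general blood marker of neuroendocrine tumors, had normalized signals of 884, 4711 and 392 on day 0, day 2 and day 139. The day 139 value was the lowest of the 3. The day 2 signal was 5.33-fold that of day 0 (log2 ratio 2.41 ± 0.20, Z-score 5.75), and its background-subtracted intensities were 923 ± 92.4, 5050 ± 505 and 357 ± 35.8 (scanner error).

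Scg3 (secretogranin III), which binds chromogranin A and the granule membrane, had signals of 153, 736 and 82.1. As with Chga, day 2 was highest and day 139 lowest. It was 4.80-fold higher on day 2 than on day 0 (log2 ratio 2.26 ± 0.21, Z-score 4.43).

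Scg2 (secretogranin II), the precursor of secretoneurin, had signals of 229, 665 and 427. Here day 0 was the lowest and day 139 lay between the other days. The day 2 signal was 2.90-fold that of day 0 (log2 ratio 1.54, Z-score 3.58). Vgf, a granin-like protein induced by nerve growth factor, had signals of 74.0, 207 and 5.31, and the last was not well above background. It was 2.79-fold higher on day 2 than on day 0 (log2 ratio 1.48 ± 0.22, Z-score 2.41).

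Among the enzymes, Pcsk1 had low signals of 15.7 on day 0 and 18.3 on day 139, the latter not well above background, and 134 on day 2. The day 2 signal was 8.52-fold that of day 0 (log2 ratio 3.09 ± 0.34, Z-score 5.07). This ratio rests on a dim probe, with background-subtracted intensities of 17.1 ± 3.64, 140.4 ± 14.4 and 16.1 ± 4.0, and under a normexp background correction the log2 ratio was 1.39, still called higher. Pcsk2 had signals of 279, 1251 and 205. Day 2 stood apart here as well, 4.48-fold above day 0 (log2 ratio 2.16, Z-score 4.44). Cpe had signals of 1343, 2078 and 1241, a ratio of 1.55 for day 2 over day 0 (log2 ratio 0.63 ± 0.20, Z-score 1.62), which exceeded the scanner error but not the Z-score limit.

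Of the 2 partner proteins, Scg5, the chaperone that PC2 needs to mature, had signals of 122, 311 and 153. It was 2.55-fold higher on day 2 than on day 0 (log2 ratio 1.35 ± 0.21, Z-score 2.48). Pcsk1n, the inhibitor of PC1/3, had signals of 525, 713 and 433, with a ratio of 1.36 (log2 ratio 0.44 ± 0.20, Z-score 0.92). It had the smallest day 2 over day 0 ratio of the 10 genes.

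The genes were grouped by roles set for this report, with Scg5 and Pcsk1n kept apart from the granins as partners. On day 2 over day 0, 5 of 5 granins, 2 of 3 enzymes and 1 of 2 partners were called higher. The median log2 ratios of these groups were 2.26, 2.16 and 0.90. Ordered by log2 ratio, neighbours differed by more than their combined scanner error at 3 places, which left 4 steps. Chgb and Pcsk1 formed the first step, Chga, Scg3 and Pcsk2 the second, Scg2, Vgf and Scg5 the third, and Cpe and Pcsk1n the last. The place of Pcsk1 was lost under normexp, where its log2 ratio of 1.39 lay below those of Chga (2.37), Pcsk2 (1.95) and Scg3 (1.89). The gap between Scg5 and Cpe was 0.72 on the log2 scale, against a combined error of 0.29. Thus each convertase had a higher ratio than its partner protein, Pcsk1 (3.09) over Pcsk1n (0.44) and Pcsk2 (2.16) over Scg5 (1.35).

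**Figure D2:**
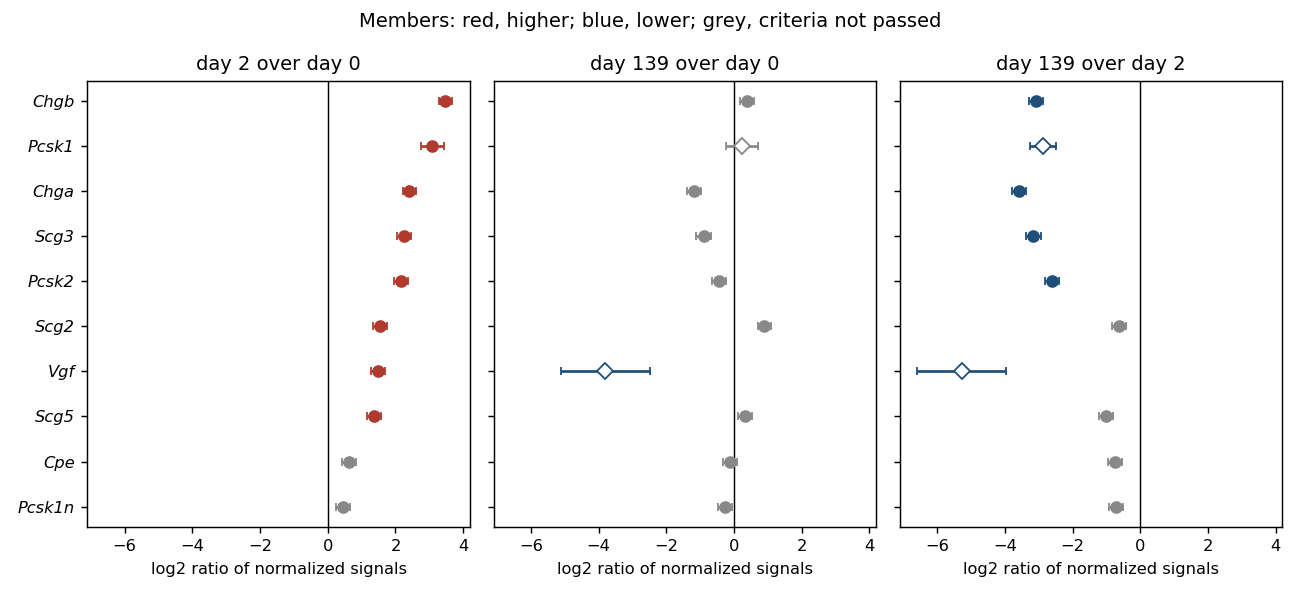
Log2 ratio of each of the 10 genes in the 3 comparisons, with bars for the scanner error, red for genes called higher, blue for lower and grey for neither, and open diamonds where the probe was not well above background on one of the arrays. The 8 red points of day 2 over day 0 lie between 1.35 and 3.48, and on day 139 over day 2 the genes called lower lie at or below -2.61.

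The extra probes of Cpe and Pcsk2 were compared by their ratios alone, since signals of different probes are not on one scale. The Cpe probes begin at bases 1981, 2033 and 1143 of its transcript, and their stretches are shown because the first 2 share the 8 bases in capitals and are thus nearly neighbours on the transcript, whereas the third is separate. The stretch of the probe at 1981 is its bases 31 to 60, and the others are bases 1 to 30. On mm9 they lie on the minus strand at chr8:67071401-67071460, chr8:67071349-67071408 and chr8:67085401-67085460.
Cpe 1981: gttaatgccacttcagagtttgGGGTTTTG
Cpe 2033: GGGTTTTGtcttgattgtagattggcccag
Cpe 1143: agagactctcaaaagctactgggaagataa
The day 2 over day 0 ratios of these probes were 1.55, 1.46 and 1.74, and none of the 3 met the criteria in any comparison. On day 139 over day 0 the ratios were 0.924, 0.908 and 1.35, and those of the first 2 lay within the scanner error of no difference. The Pcsk2 probes begin at bases 2373 and 4580, at chr2:143639649-143639708 and chr2:143641856-143641915 of mm9 on the plus strand, and 30 bases of each are shown because only the first gave a signal.
Pcsk2 2373: gacacaagcaatcccagcctggtctcaagc
Pcsk2 4580: ccctgagtctgatgcaagagacagtcattt
The second probe, with 35% G and C against 45% in the first, read 7.74, 13.8 and 5.19 on the 3 days and was not well above background on any of them, so no ratio was taken from it and the Pcsk2 result rests on 1 probe.

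**Figure D3:**
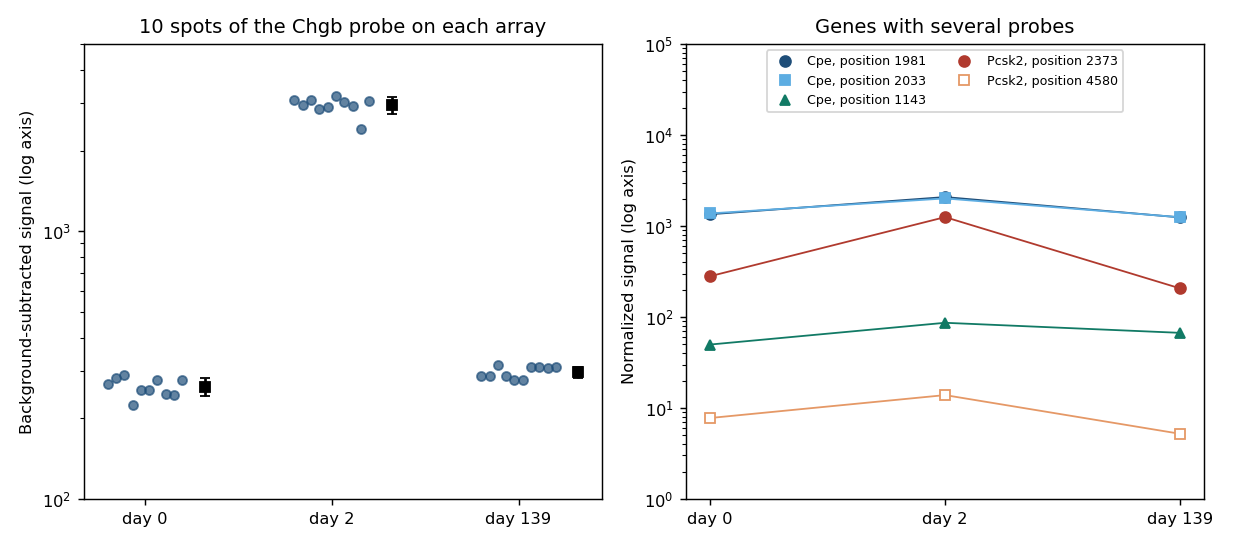
Left, background-subtracted intensity (log axis) of the 10 Chgb spots on each array, with squares for the mean and bars for the SD; right, normalized signal (log axis) of the 3 Cpe and 2 Pcsk2 probes by day, with open points not well above background. The day 2 Chgb spots (2409 to 3201) lie above all others, and the second Pcsk2 probe is open on all 3 days.

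On day 139 over day 0, 0 of 10 genes were called higher and 1 of 10, Vgf, was called lower, where 2.59% of the probes tested were called higher (830) and 2.07% lower (666). The median log2 ratio of the 10 genes was -0.20, against -0.02 over all probes. Vgf was at least 4.07-fold lower on day 139 (Z-score -3.65), and its background-subtracted intensity there was 4.49 ± 4.04, after 78.1 ± 8.55 on day 0. This call was lost when a probe had to be well above background on all 3 arrays, which leaves Vgf out, and Chga was also called lower when the Z-score came from 250 probes. Chga had a ratio of 0.443 (log2 ratio -1.17 ± 0.20, Z-score -1.90) and Scg3 a ratio of 0.536 (-0.90 ± 0.22, Z-score -1.33), both below day 0 by more than the scanner error but short of the criteria. Scg2 had a ratio of 1.86 (log2 ratio 0.90 ± 0.21, Z-score 1.52). Chgb had a ratio of 1.31, so the granins lay on both sides of their day 0 level, and Scg5 had a ratio of 1.26. For Pcsk2 (0.735), Cpe (0.924) and Pcsk1n (0.824) the values lay below day 0 by quantile normalization and above it when the arrays were scaled to the spike-in controls, with log2 ratios of 0.09, 0.44 and 0.26, and none was called either way. Pcsk1 was not well above background on day 139 and gives no fold, as its signals of 15.7 and 18.3 lay near the lowest signals well above background on these arrays.

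Scaling to the spike-in controls raised the median log2 ratio of all probes to 0.50 on day 139 over day 0 and to 0.52 on day 139 over day 2. Under it 2077 probes were called higher and 321 lower on day 139 over day 0, 2275 and 210 on day 139 over day 2, and 536 and 843 on day 2 over day 0. Scg2 was then called higher on day 139 over day 0 (log2 ratio 1.43). The median log2 ratio of the 10 genes on day 139 over day 0 then changed sign, from -0.20 (4 genes above 0) to 0.35 (7 above 0), and on day 139 over day 2 it was -2.20. Relative to the shift of all probes, these medians were -0.15 and -2.72.

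On day 139 over day 2, 6 of 10 genes were called lower and 0 higher, where 1.59% of the probes tested were called lower (509) and 2.54% higher (816). The median log2 ratio was -2.74, against -0.04 over all probes, and 10 of 10 genes had a lower signal on day 139. Chga fell 12.0-fold (log2 ratio -3.59 ± 0.20, Z-score -5.86), Scg3 8.97-fold (-3.17, Z-score -5.19) and Chgb 8.50-fold (-3.09, Z-score -5.26). Pcsk2 fell 6.09-fold (-2.61 ± 0.21, Z-score -4.40). Vgf was at least 11.3-fold lower and Pcsk1 at least 7.30-fold lower, since neither was well above background on day 139. Under normexp the log2 ratios of these were -1.97 and -1.30, and that of Scg3 was -2.54, all still called lower.

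The other 4 genes, Scg5 (ratio 0.493), Cpe (0.598), Pcsk1n (0.608) and Scg2 (0.643), had lower signals on day 139 than on day 2 by more than the scanner error but were not called. With spike-in scaling the log2 ratios of Scg2 (-0.07), Cpe (-0.19) and Pcsk1n (-0.15) were within it. Between them and the other 6 there was a gap of 1.58 on the log2 scale, from -1.02 for Scg5 to -2.61 for Pcsk2, against a combined scanner error of 0.29. Under normexp this separation was smaller, with -0.85 for Scg5 and -1.30 for Pcsk1. By role, 4 of 5 granins, 2 of 3 enzymes and 0 of 2 partners were called lower, with median log2 ratios of -3.17, -2.61 and -0.87. Scg2 differed from the other granins here, as its ratio of 0.643 stood beside ratios of 0.118 or less.

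The other genes of the granule and of prohormone cleavage were examined as lists. Among 18 genes of granule membrane and exocytosis, 14 were measured, and Syt4, Syt7, Rims2 and Scgn were not well above background on any array. On day 2 over day 0, 2 of 14 were called higher and 0 lower, with a median log2 ratio of 0.25, and the same 2 genes were the only ones called lower on day 139 over day 2. These were Ptprn, the granule membrane protein IA-2, and Resp18, a granule protein of neuroendocrine cells. Ptprn read 4.46, 51.5 and 7.57 on the 3 days, being well above background on day 2 alone, and was at least 3.98-fold higher on day 2 than on day 0 and at least 2.83-fold lower on day 139 than on day 2. Resp18 read 56.4, then 145.8 and then 28.1, a ratio of 2.59 followed by one of 0.192. None of the 14 was called on day 139 over day 0, where the median was 0.22.

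Of 10 other proprotein convertases and prohormone peptidases, 9 were measured. Only Cpz, a carboxypeptidase of the extracellular matrix, was called higher on day 2 over day 0, at least 5.35-fold, and the list median was -0.03. On day 139 over day 0, Cpz (at least 23.8-fold) and Pcsk6 (2.80-fold, signals of 63.3 and 177), a convertase of the constitutive secretory pathway, were called higher and none lower. Cpz had signals of 10.3, 69.2 and 308, so that day 139 was its highest, in contrast to the members.

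**Figure D4:**
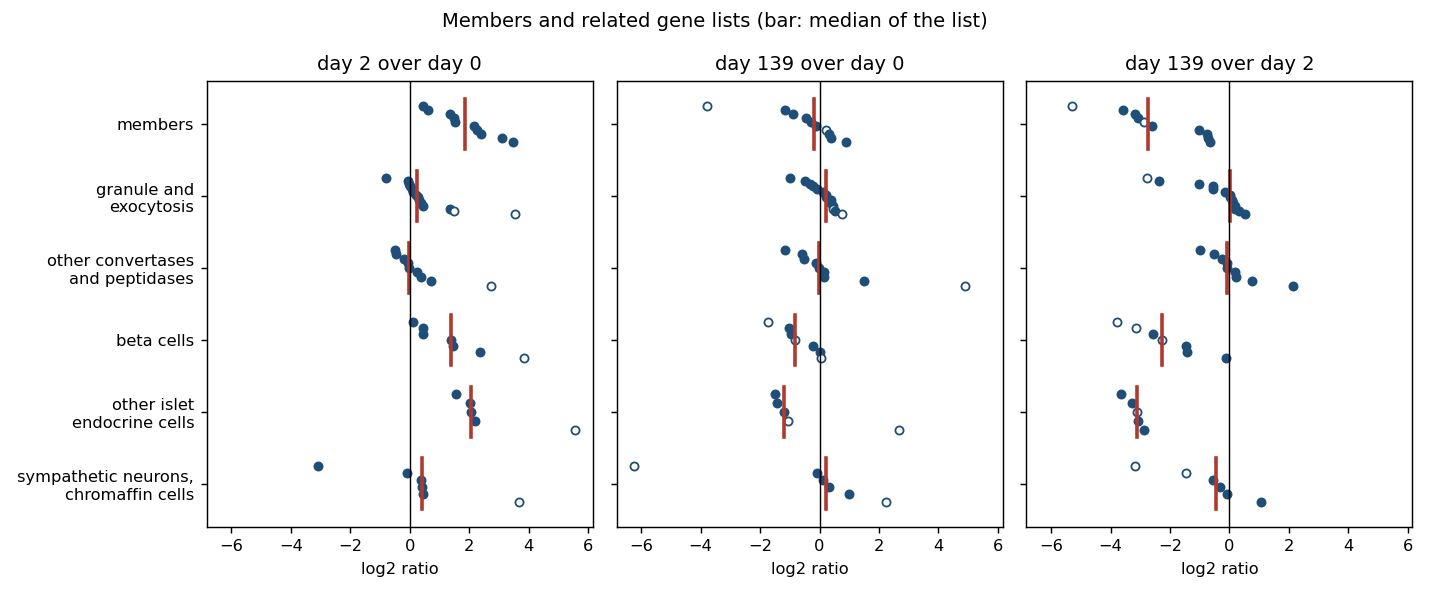
Log2 ratios of the 10 members and of the gene lists in the 3 comparisons, with a point per gene, a bar for the list median and open points not well above background on at least one of the arrays compared. On day 2 over day 0 the median was 1.85 for the members, 0.25 for the granule and exocytosis list and -0.03 for the other convertases and peptidases.

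Hormone genes were set beside these values because the members act on their products. The insulin genes had high signals throughout, with 27132, 36989 and 13369 for Ins1 and 30998, 42566 and 15845 for Ins2. Their day 2 over day 0 ratios of 1.36 and 1.37 were not called, while both were called lower on day 139 over day 2, with ratios of 0.361 and 0.372. Iapp, the amylin gene of beta cells, had a day 2 over day 0 ratio of 5.12, close to that of Chga, and 0.167 on day 139 over day 2.

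The beta cell list (9 genes, 7 measured, Pdx1 and Slc2a2 not well above background on any array) had 4 of 7 genes called higher on day 2 over day 0 and 6 of 7 lower on day 139 over day 2, with medians of 1.39 and -2.28. The genes called higher were Iapp, Ucn3 (at least 4.09-fold, well above background on day 2 alone and so in the list only through that day), Nkx6-1 (2.72-fold) and G6pc2 (2.62-fold). The list of other islet endocrine cells (7 genes, 5 measured) had 5 of 5 genes called higher on day 2 over day 0 and 5 of 5 lower on day 139 over day 2, with medians of 2.07 and -3.10. Gcg, the glucagon gene, had signals of 881, 2587 and 308, and the day 2 over day 0 ratios of Sst, Ppy and Pyy were 4.21, 4.12 and 4.64. Ttr, the transthyretin gene, was at least 39.4-fold higher on day 2 than on day 0. It was not well above background on day 0 and so was in the list only through day 2 and day 139. The summed signal was 62306, 97426 and 32891 for the beta cell list and 1197, 4435 and 504 for the other endocrine list. Most of the former came from Ins1 and Ins2 on each day, and most of the latter from Gcg, so these sums do not describe the lists as a whole. The list medians on day 139 over day 0 were -0.84 and -1.19, against -0.20 for the members, with Gcg called lower and Ttr called higher (at least 5.31-fold). The part of these lists in the members' ratios was not tested. Of 7 endocrine transcription factors only 3 were measured, with Neurod1, Isl1, Pax6 and Rfx6 not well above background on any array. Insm1, a factor of endocrine and chromaffin cells, was called higher on day 2 and on day 139 over day 0, with signals of 31.8, 99.5 and 101.9.

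Sympathetic neurons and chromaffin cells are another known source of the members. Of their 13 markers 6 were measured, and among the others Dbh, Slc6a2, Chrna3, Nefl, Prph and Npy were not well above background on any array. On day 2 over day 0, 1 of 6 was called higher (Uchl1, at least 4.42-fold, well above background on day 2 alone) and 1 lower (Phox2a), 4 of 6 had a higher signal, and the list median was 0.41. On day 139 over day 2, 0 of 6 were called, 5 of 6 had a lower signal, and the list median was -0.44. On day 139 over day 0, Phox2a was the only gene called, again lower, and the list median was 0.21. The summed signal of the list was 621, 530 and 478, a smaller fall than that of Phox2a by itself (268, 31.8 and 3.55). Th, the first enzyme of catecholamine synthesis, had signals of 199, 260 and 246.

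Other tissue markers also moved between the arrays. Of 9 spleen stroma markers, 3 were called higher on day 2 over day 0, among them Col1a1 (9.49-fold) and Col3a1 (11.5-fold), the chains of fibrillar collagen, and both were called lower on day 139 over day 2 (ratios of 0.122 and 0.148). In the same list Dcn and Lum, proteoglycans of the collagen matrix, were called higher on day 139, 6.10-fold and 10.4-fold over day 0 and 4.68-fold and 4.80-fold over day 2. Pdgfra was called lower on day 139 over day 0 (ratio of 0.355), while Pdgfrb (0.474) was not called. Both also read lower on day 2 than on day 0 (0.546 and 0.673). Of the 9 stroma markers, 6 had a higher signal on day 2 than on day 0, and 5 on day 139 than on day 0. The median log2 ratios were 0.73 and 0.21. The summed signal of that list was 8528, 26775 and 15832. Of 8 exocrine pancreas markers, 7 were measured, 0 were called on day 2 over day 0 and 4 were called higher on day 139 over day 0, namely Amy2a5 (pancreatic amylase, 19.0-fold), Cpa1, Cpb1 and Prss2. The last 3, with Pnlip, were well above background on day 139 alone and so entered the list through the day on which they were high. The summed exocrine signal was 137, 193 and 793. Of the 3 B cell markers, 2 were called higher on day 139 over day 0 (Cd79a 2.58-fold, Cd79b 2.22-fold), and their summed signal was 32244, 32519 and 68944. The T cell gene Cd247 was 3.03-fold higher on day 139 than on day 0. Of 6 macrophage markers, 2 were called lower and 0 higher on day 2 over day 0. The 2 called lower were Spic and Hmox1, genes of the macrophages that recycle iron from red cells, with ratios of 0.305 and 0.313. In that list 3 of 6 markers had a higher signal on day 2, and the median log2 ratio was 0.09. The part of these lists in the members' ratios was not tested.

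The genes whose pattern was most like that of the members were sought over 16004 named genes, by the Euclidean distance from the members' median log2 ratios on day 2 over day 0 (1.85) and day 139 over day 0 (-0.20). Genes had to be well above background on day 2, and for this measure signals under the lowest one well above background on an array were raised to it. With only 3 arrays, many genes can lie close. The 5 nearest were Gsdma (distance 0.20), Bex2 (0.21), Myh11 (0.23), Fbn1 (0.25) and Ncam1 (0.29). Their signals on day 0, day 2 and day 139 were 42.4, 132 and 37.5 for Bex2, 91.1, 289 and 88.0 for Myh11, 155, 617 and 117.2 for Fbn1, and 137, 412 and 109.6 for Ncam1. Gsdma had signals of 19.3, 62.0 and 9.5, and its place rests on the last being raised to 18.2.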

How the data were processed

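Sample 1 (day 0), Sample 2 (day 2) and Sample 3 (day 139) were each hybridized to 1 SurePrint G3 Mouse 8x60K array with Cy3-labeled cRNA. The authors deposited the scanner output, which holds the linear intensity of every spot before normalization between arrays, and a table of quantile normalized intensity values per probe. Per the file headers, Feature Extraction 10.7.1.1 had subtracted the background, while the submitters' processing notes name version 9.5.1.1. The RNA and labeling kits differ between the labels and the methods, and this was not settled.

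After control spots and outlier spots had been removed, each probe was given the mean of its spots. Quantile normalization of 55679 probes across the 3 arrays was followed by raising signals under 1 to 1 and by the log2 transformation. The 32108 probes well above background on at least 1 array were tested by the Z-score and ratio criteria of the study. A gene was read by its brightest probe. The number of arrays limits the precision.

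The genes named are the 10 members, the islet hormone genes, up to 4 called genes of each list with the largest change and the 5 genes nearest in pattern, with undetected or further list members named where they are counted. Some list members are not reported here by name. The members, lists and rules were chosen with earlier results of these data known. The alternatives were scaling by the spike-in controls or by the 75th percentile of each array, a normexp correction with an offset of 50 (limma 3.58.1, R 4.3.3), the deposited table, dim signals raised to the lowest one well above background, detection on all 3 arrays, outlier spots kept, a Z-score from 250 probes or from 1 SD over all probes, a ratio limit of 2 or 0.5 without a Z-score, and the median over a gene's probes. The calling step was tested only on simulated data, with large planted changes and log2 ratios that spread less than those of all probes on these arrays. That test does not bear on dim probes such as those of Pcsk1 and Vgf. The remaining steps ran in pandas 2.3.3 and numpy 2.4.6 under Python 3.11.15, and figures were drawn with matplotlib 3.10.9. Probe positions are those of the array files (mm9), and promoters are from RefSeq (GRCm38.p6).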

Additional observations from a re-analysis of the deposited data

How the results depend on the processing

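No called ratio changed direction under any alternative. No paired analysis was possible because each day had 1 array. On day 139 over day 0 the count called higher went from 0 to 1 with spike-in scaling, and the count called lower went from 1 to 0 with detection on all 3 arrays and to 2 with a window of 250 probes or with a ratio limit of 2 or 0.5 (Chga added). On day 2 over day 0, 8 genes were called higher under every alternative but detection on all 3 arrays, which left out Vgf and Pcsk1 and gave 6. On day 139 over day 2, 6 were called lower except with detection on all arrays (4) and with the ratio limit of 2 or 0.5 (7, with Scg5). Normexp moved the median log2 ratios toward 0, to 1.34 on day 2 over day 0 and -1.64 on day 139 over day 2.

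Without spike-in scaling, the counts over all probes moved by more than 1.5 times with the floor (1403 higher on day 139 over day 0 and 1296 on day 139 over day 2), with 1 SD over all probes (774 lower on day 139 over day 2) and with the ratio limit (1364 higher and 1550 lower on day 2 over day 0, 1944 and 2228 on day 139 over day 0, 1887 and 1991 on day 139 over day 2). Dim signals limit Pcsk1 and Vgf: with the floor, the log2 ratios of Vgf were -2.02 on day 139 over day 0 and -3.50 on day 139 over day 2, and under normexp the former was -0.97.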
